A study of Mus musculus with 8 samples.

Results

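The MEK5-ERK5 cascade is a mitogen-activated protein kinase pathway. In it, the kinases MEKK2 and MEKK3 phosphorylate MEK5, which phosphorylates and so activates ERK5. ERK5 differs from its relatives by a long C-terminal tail with a transcription activation domain. It phosphorylates MEF2 transcription factors, and the genes of the Krüppel-like factors KLF2 and KLF4, best studied in endothelial cells, are among those it induces, while the kinase SGK1 is a reported ERK5 substrate. The 10 genes described here, chosen by symbol, encode these proteins in the mouse: Map3k2 and Map3k3 (MEKK2 and MEKK3), Map2k5 (MEK5), Mapk7 (ERK5), Mef2a, Mef2c, Mef2d, Klf2, Klf4 and Sgk1. All 10 were matched by Entrez number among the 24454 genes measured.

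The genes were followed in 8 RNA sequencing libraries of 4T1, a mammary tumour line from the mouse that spreads to distant organs when grafted, in a study of this kinase pair in the epithelial-mesenchymal transition and metastasis. All cells had been infected with a lentivirus carrying a short hairpin RNA and selected with puromycin. The hairpin was directed against mouse ERK5 in 3 libraries (shERK5, titled shERK5-1), against mouse MEK5 in 2 libraries (shMEK5, titled shMEK5-2), and was non-targeting in 3 libraries (shCTRL). Each target was thus hit by 1 hairpin only, no other treatment is named, and the labels do not tell whether a line was a clone or a pool. RNA was total RNA depleted of ribosomal RNA, so protein and phosphorylation were not measured. In bulk RNA, fewer cells expressing a gene and less RNA per cell cannot be told apart. Separate cultures are not stated for the replicates. Spread among replicates, on which every p-value rests, may therefore be technical only.

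Libraries held between 41397315 and 53714288 gene-assigned reads. Values are CPM, in which each library's gene counts are scaled to a total of 1000000, and 1 read was worth between 0.0186 and 0.0242 CPM. All 5 epithelial markers (Epcam, Cdh1, Krt8, Krt18 and Krt19) were expressed, with a summed level of 1350 to 1401 CPM in shERK5, 1198 to 1261 CPM in shMEK5 and 1630 to 1817 CPM in shCTRL. Krt8 and Krt18 carry this sum and were lower in both knockdowns, whereas Cdh1 and Krt19 were higher in both, and Epcam was higher in shERK5 (27.0 to 30.8 CPM, against 11.6 to 14.4 CPM in shCTRL). Of 5 endothelial markers, 0 reached 1 CPM in any library (summed level at most 0.387 CPM), and Kdr had no read, and of 5 leukocyte markers 0 reached 1 CPM either. Of 5 fibroblast markers only Pdgfra did, the summed level being 22.9 to 28.2 CPM in shERK5, 34.4 to 35.9 CPM in shMEK5 and 31.6 to 47.3 CPM in shCTRL. Pdgfra carries this sum, with Col1a1, Col1a2 and Pdgfrb at or below 0.653 CPM in every library and Dcn at 0 throughout. Whether any fibroblasts were present was not tested.

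ERK5 acts on many of its genes through MEF2 proteins, which bind an AT-rich element of 10 bases, so the promoters of the KLF genes are shown first. RefSeq (GRCm38.p6) gives start windows of 300 bases, 250 before and 50 after an annotated start; the 250 bases before the start of Klf2 (chr8:72318812-72319061, plus strand) and of Klf4 (chr4:55532476-55532725, minus strand) are printed 5′ to 3′, and capitals mark a match to the MEF2 consensus.

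Klf2: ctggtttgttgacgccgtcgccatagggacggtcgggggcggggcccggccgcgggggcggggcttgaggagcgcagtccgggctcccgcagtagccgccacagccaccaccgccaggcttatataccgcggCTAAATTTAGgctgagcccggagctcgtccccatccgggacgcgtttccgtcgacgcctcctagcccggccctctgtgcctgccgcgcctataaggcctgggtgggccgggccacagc
Klf4: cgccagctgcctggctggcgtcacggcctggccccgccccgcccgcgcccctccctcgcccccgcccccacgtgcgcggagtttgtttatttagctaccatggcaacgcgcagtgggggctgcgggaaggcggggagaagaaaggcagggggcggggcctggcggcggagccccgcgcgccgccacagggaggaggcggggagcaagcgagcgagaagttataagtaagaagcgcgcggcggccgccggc

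The Klf2 match, CTAAATTTAG, began 118 bases before the start; the element is a palindrome and reads the same on both strands. Klf4 held no match in its window, which says only that these letters are not there. The other match among the genes was in Mef2a, where CTAAAAATAG began 2 bases before the start and ran across it, shown here with 10 bases on either side (chr7:67372841-67372870, minus strand).

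Mef2a: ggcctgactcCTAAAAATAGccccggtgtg

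No match was found in the windows of Map2k5, Map3k3 and Mef2d (1 each), Mapk7 (2), Mef2c (3) or Sgk1 (6), and the window of Map3k2 was not used here. Over all 32851 start windows of the mouse genome, 3.19% held the consensus on either strand, 0.110% held CTAAAAATAG or its reverse complement and 0.0396% held CTAAATTTAG. These letters describe the windows and are not evidence of binding.

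Read abundance was compared between the genes per kilobase of GENCODE exon length, because long transcripts yield more reads. The length joins the exons of all annotated transcripts of a gene, 13950 bases for Map3k2, 14681 for Mef2a and 5985 for Mef2d. Which transcripts the cells make was not tested, and the order and the MEF2 shares below depend on this length. On this scale, CPM per 1000 bases, the order of levels in shCTRL was Map3k3 (25.1 ± 0.302), Sgk1 (16.4 ± 0.205), Map3k2 (15.0 ± 1.20), Map2k5 (11.2 ± 0.308), Mapk7 (6.09 ± 0.365), Mef2a (5.37 ± 0.926), Klf4 (4.73 ± 0.0669), Mef2d (2.65 ± 0.194), Klf2 (0.224 ± 0.0581) and Mef2c (0.00888 ± 0.00291; SD, n = 3 libraries for each). Within the cascade, the transcripts of MEKK3, MEKK2 and MEK5 thus stood above that of ERK5. The shCTRL libraries of Mapk7 and Mef2a overlapped on this scale, as did those of Mef2a and Klf4. Klf2 and Mef2c were far below the other 8 genes in every library.

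**Figure D1:**
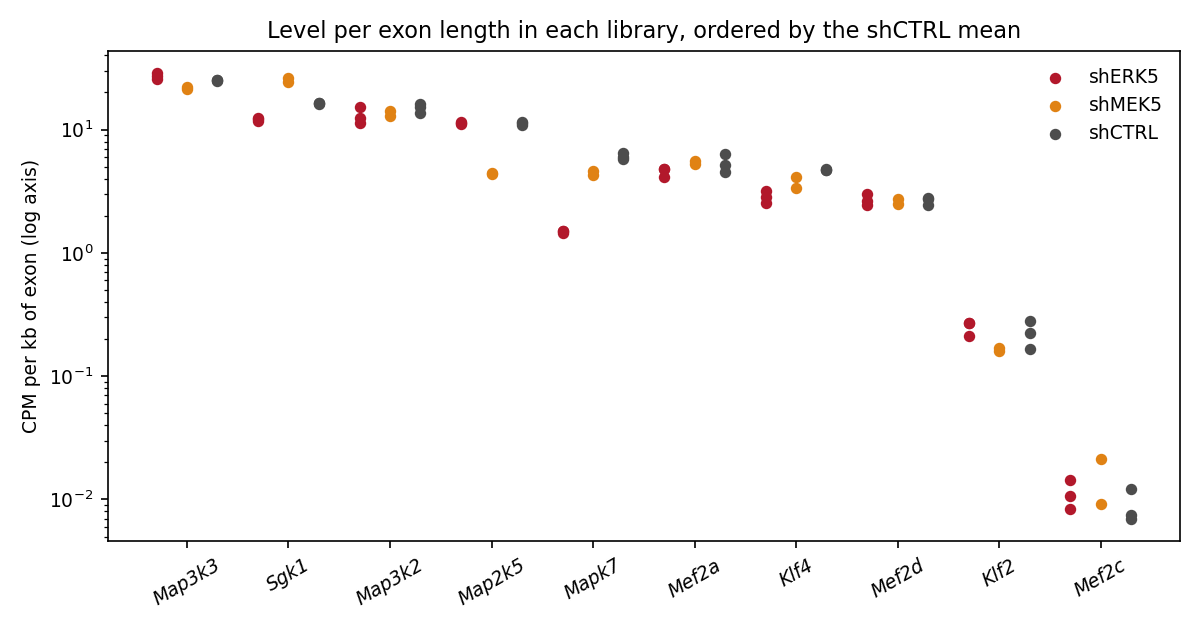
Level of each gene in each library as CPM per kb of exon (log axis), ordered by the shCTRL mean, with shERK5, shMEK5 and shCTRL side by side. Map3k3, at 21.3 to 28.7 CPM per kb over the 8 libraries, is above all genes but Sgk1 in every library, and Mef2c stays at or below 0.0214 CPM per kb.

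Among the kinases, each hairpin was read first at its own target. Mapk7 (chromosome 11, 61488812 to 61494267, GRCm38.p6) had 6.59, 6.33 and 6.66 CPM in shERK5, 20.4 and 18.7 CPM in shMEK5, and 25.6, 28.6 and 26.1 CPM in shCTRL. The 3 groups did not overlap, with shERK5 lowest and shMEK5 between shERK5 and shCTRL. In shERK5, 24.4% of the shCTRL mean remained (log2 fold change -1.88, SE 0.07, limma adjusted p = 4.56e-08). The MEK5 hairpin also came with a fall of Mapk7, to 73.0% of shCTRL (-0.44, SE 0.08, limma adjusted p = 0.000923).

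Map2k5 (chromosome 9, 63163768 to 63381682) had 36.1, 36.8 and 37.1 CPM in shERK5, 14.1 and 14.4 CPM in shMEK5, and 35.2, 37.0 and 36.8 CPM in shCTRL. Only the shMEK5 libraries were low, at 39.2% of the shCTRL mean (-1.29, SE 0.06, limma adjusted p = 1.84e-07). The shERK5 libraries lay within or just beyond the shCTRL range. Their log2 fold change was 0.01, with a 95% interval from -0.10 to 0.13, that is between 0.933-fold and 1.09-fold (limma adjusted p = 0.848). ERK5 transcript was thus lower in the MEK5 knockdown, while a change of MEK5 transcript in the ERK5 knockdown was not detected within that interval.

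**Figure D2:**
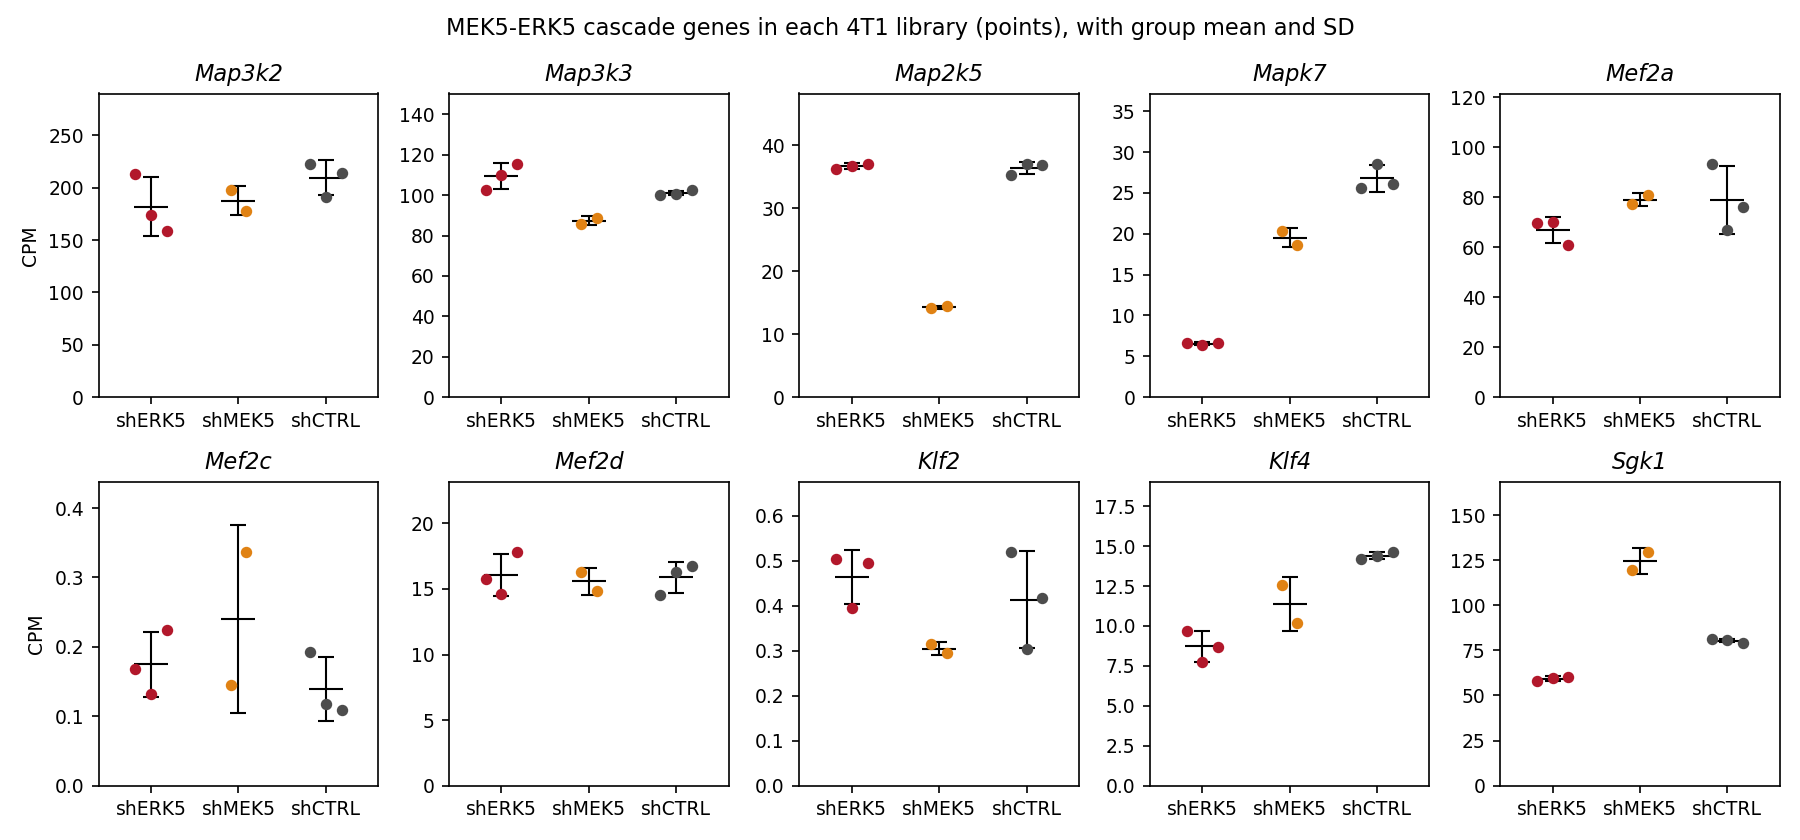
CPM of each gene in each library (points, vertical axes from 0), with the group mean and SD (bars), for shERK5 (3 libraries), shMEK5 (2) and shCTRL (3). Mapk7 is lowest in shERK5, at 6.33 to 6.66 CPM, Map2k5 is lowest in shMEK5, at 14.1 and 14.4 CPM, and Sgk1 is above shCTRL in shMEK5 and below it in shERK5.

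Of the 8 genes that passed the expression filter (at least 1 CPM in at least 2 libraries), 3 changed in shERK5 against shCTRL, all downwards: Mapk7, Klf4 and Sgk1. Over all 11623 genes tested, 63.3% were called in that comparison, 32.0% upwards and 31.3% downwards. In shMEK5 against shCTRL, 5 of the 8 changed, with Sgk1 up and Map2k5, Mapk7, Klf4 and Map3k3 down, against 48.7% of all genes tested (23.1% up, 25.6% down). Between the knockdowns, shERK5 against shMEK5, 5 of 8 differed, with Map2k5 and Map3k3 higher and Mapk7, Klf4 and Sgk1 lower in shERK5, against 39.4% of all genes tested (22.0% up, 17.4% down). Both knockdowns are set against the same shCTRL libraries. The median log2 fold change of the 8 genes was -0.21 in shERK5 and -0.18 in shMEK5, against 0.0023 and -0.019 for all genes tested, and the hairpin targets are among the 8.

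**Figure D3:**
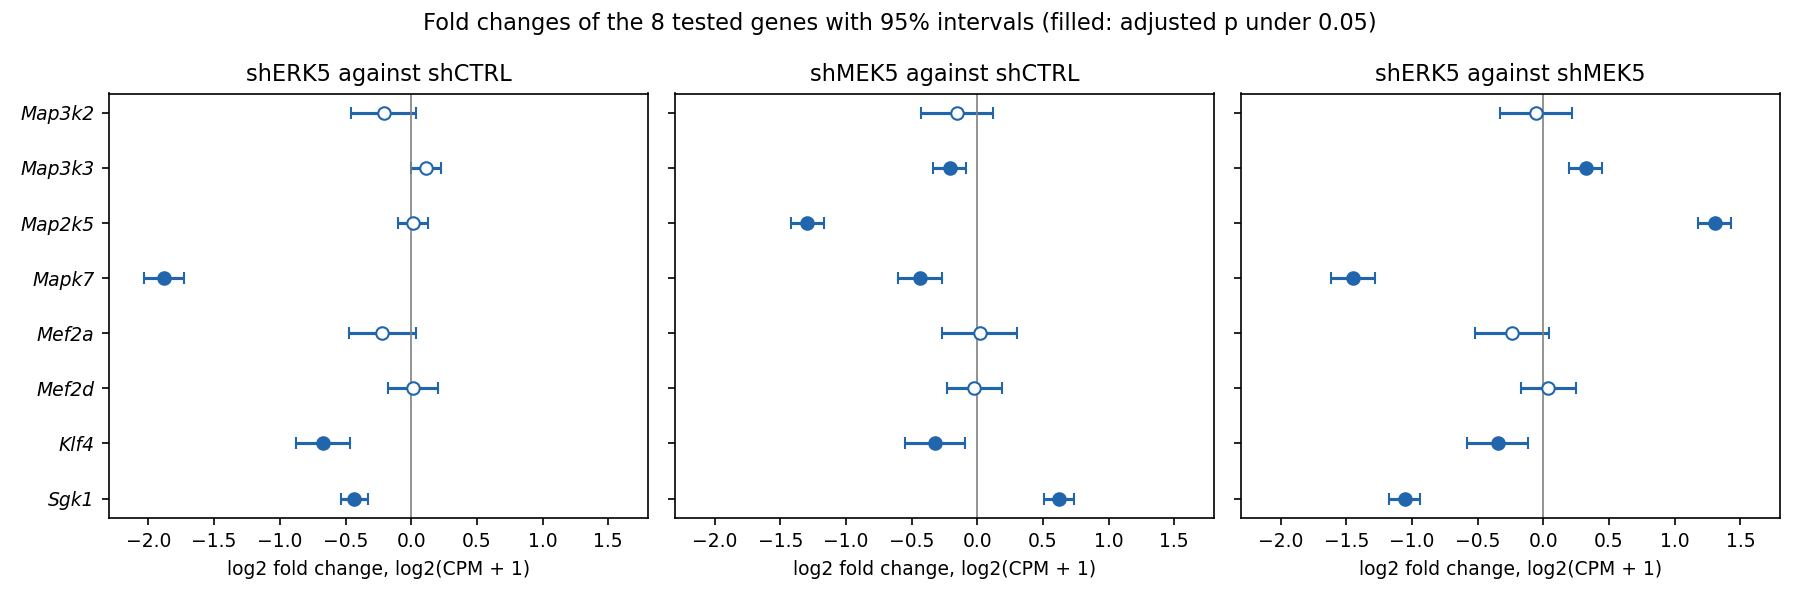
Log2 fold changes on the log2(CPM + 1) scale of the 8 tested genes (points) with 95% intervals (bars) in the 3 comparisons; filled points passed an adjusted p of 0.05. Sgk1 is at -0.43 in shERK5 and at 0.62 in shMEK5 against shCTRL, while Klf4 is below 0 in all 3 panels.

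Of the kinases that feed into MEK5, Map3k3 was called in shMEK5 against shCTRL and between the knockdowns, and Map3k2 in no comparison of the main fit. Map3k3 (chromosome 11, 106084587 to 106156656), encoding MEKK3, had 103, 110 and 116 CPM in shERK5, 85.7 and 88.9 CPM in shMEK5, and 100.05, 100.7 and 102 CPM in shCTRL. The shMEK5 libraries were the lowest, and the shERK5 libraries were all above shCTRL, replicate 1 only just. In shMEK5 the gene fell to 86.3% of shCTRL (-0.21, SE 0.06, limma adjusted p = 0.0115). Leaving out shMEK5 replicate 1 ended this call (-0.18, adjusted p = 0.0849). In shERK5 Map3k3 stood at a log2 fold change of 0.11 (SE 0.05, limma adjusted p = 0.0764; 0.16 with adjusted p = 0.0193 without shERK5 replicate 1, and 0.072 with adjusted p = 0.290 without shERK5 replicate 3). Between the knockdowns Map3k3 was higher in shERK5 by 0.32 (SE 0.06, limma adjusted p = 0.00136). The annotated span of Limd2 overlaps that of Map3k3, and no source used here tells whether counting used strand. Limd2 stood at 59.8 ± 2.83 CPM in shERK5, 109 ± 2.47 CPM in shMEK5 and 94.7 ± 3.84 CPM in shCTRL (SD over 3, 2 and 3 libraries), in the reverse order of Map3k3, and its part in the Map3k3 values was not tested.

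Map3k2 (chromosome 18, 32163089 to 32236751), encoding MEKK2, had 213, 174 and 159 CPM in shERK5, 197 and 178 CPM in shMEK5, and 223, 191 and 214 CPM in shCTRL. The groups overlapped. Its log2 fold changes did not pass the test in shERK5 (-0.21, 95% interval -0.46 to 0.04, limma adjusted p = 0.117) or in shMEK5 (-0.15, -0.43 to 0.12, adjusted p = 0.316). With shERK5 replicate 1, the highest of its group, left out, the shERK5 value became -0.33 (adjusted p = 0.00271), and with replicate 3, the lowest, left out it became -0.12 (adjusted p = 0.346). The shMEK5 value was -0.081 (adjusted p = 0.730) when shMEK5 replicate 2 was left out.

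The MEF2 factors, which bind the element shown above in the Klf2 window, were represented by Mef2a and Mef2d, whereas Mef2c was close to the floor. Mef2a (chromosome 7, 67231163 to 67376456) had 69.9, 70.2 and 61.1 CPM in shERK5, 77.3 and 80.9 CPM in shMEK5, and 93.5, 66.8 and 76.1 CPM in shCTRL. The shCTRL libraries spread over the whole range of the others except its lower end, with a coefficient of variation of 17.2%. The log2 fold change was -0.22 in shERK5 (95% interval -0.47 to 0.04, limma adjusted p = 0.116) and 0.019 in shMEK5 (-0.27 to 0.30, adjusted p = 0.912). Without shCTRL replicate 2, the lowest of its group, the shERK5 value was -0.33 (adjusted p = 0.0150), and without shCTRL replicate 1, the highest, it was -0.090 (adjusted p = 0.335).

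Mef2d (chromosome 3, 88141941 to 88172091) had 15.8, 14.6 and 17.8 CPM in shERK5, 16.3 and 14.9 CPM in shMEK5, and 14.6, 16.3 and 16.7 CPM in shCTRL. These ranges lay on top of each other. Fold changes were between 0.886-fold and 1.15-fold in shERK5 and between 0.850-fold and 1.14-fold in shMEK5 by their 95% intervals (limma adjusted p = 0.897 and 0.853). A long non-coding gene, 1700113A16Rik, overlaps Mef2d and was at most 3.08 CPM in any library.

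Mef2c (chromosome 13, 83504017 to 83667079), a factor best known from muscle, heart and neurons, had 9, 7 and 10 reads in shERK5, 6 and 16 reads in shMEK5, and 10, 5 and 5 reads in shCTRL. Pooled over libraries this is 0.172 CPM in shERK5 (exact Poisson 95% interval 0.112 to 0.252), 0.247 CPM in shMEK5 (0.155 to 0.375) and 0.142 CPM in shCTRL (0.0870 to 0.220), intervals that cover counting error only and overlap. The gene failed the filter and was not tested; fitted without a filter, its adjusted p was 0.221 or higher in every comparison by limma, edgeR and DESeq2. Per kilobase, Mef2a made up 62.9% ± 4.14 of the summed Mef2a, Mef2c and Mef2d level in shERK5 (SD, n = 3), 67.3% ± 2.10 in shMEK5 (SD, n = 2) and 66.5% ± 5.11 in shCTRL (SD, n = 3), and Mef2d nearly all of the rest.

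The Krüppel-like factor genes split by level. Klf2 (chromosome 8, 72319062 to 72321654), whose window holds the CTAAATTTAG element, had only 27, 21 and 22 reads in shERK5, 13 and 14 reads in shMEK5, and 27, 13 and 19 reads in shCTRL. No library had more than 27 reads of it. Pooled levels were 0.462 CPM in shERK5 (exact Poisson 95% interval 0.360 to 0.584), 0.304 CPM in shMEK5 (0.200 to 0.442) and 0.420 CPM in shCTRL (0.320 to 0.542). Klf2 failed the filter. Without a filter its adjusted p was 0.103 or higher in every comparison by limma, edgeR and DESeq2, and no change of Klf2 was detected at these counts.

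Klf4 (chromosome 4, 55527137 to 55532475), which encodes an epithelial and stem cell transcription factor, was expressed and fell in both knockdowns. It had 9.70, 7.74 and 8.70 CPM in shERK5, 12.6 and 10.2 CPM in shMEK5, and 14.2, 14.4 and 14.6 CPM in shCTRL. The 3 groups did not overlap, and shMEK5 lay between shERK5 and shCTRL. In shERK5 60.5% of the shCTRL mean remained (-0.67, SE 0.09, limma adjusted p = 0.000127). The fall in shMEK5, to 79.0% of shCTRL, was smaller (-0.32, SE 0.10, limma adjusted p = 0.0257). Dropping shMEK5 replicate 2 ended that call (-0.18, adjusted p = 0.256). So did dropping shCTRL replicate 2, at -0.32 with an adjusted p of 0.0571, or shCTRL replicate 3, at -0.31 with an adjusted p of 0.0647. Klf4 was lower in shERK5 than in shMEK5 by -0.35 (SE 0.10, limma adjusted p = 0.0219). This difference was not called when only those groups were fitted (-0.35, adjusted p = 0.0521), nor without shMEK5 replicate 1 (-0.21, adjusted p = 0.230). It was also not called without shERK5 replicate 2, at -0.27 with an adjusted p of 0.0647, or replicate 3, at -0.35 with an adjusted p of 0.0531.

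Sgk1 (chromosome 10, 21882184 to 21999903) encodes a kinase of the AGC family that controls ion channels and survival and is induced by serum and glucocorticoids. It moved in opposite directions, with 57.9, 59.6 and 60.5 CPM in shERK5, 120 and 130 CPM in shMEK5, and 81.1, 80.9 and 79.3 CPM in shCTRL. The groups were far apart compared with the spread within them, with coefficients of variation of 2.27% in shERK5, 5.68% in shMEK5 and 1.25% in shCTRL. Sgk1 fell to 73.8% of shCTRL in shERK5 (-0.43, SE 0.05, limma adjusted p = 2.35e-05) and rose to 155% of it in shMEK5 (0.62, SE 0.05, limma adjusted p = 8.95e-06). The test of the difference itself, shERK5 against shMEK5, gave -1.06 (SE 0.05, limma adjusted p = 4.27e-07), or 0.481-fold.

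Genes with the most similar pattern over the 8 libraries were looked up among 9801 tested genes with an established symbol and a mean of at least 5 CPM, by the root mean square difference of centred log2(CPM + 1) values. Nearest to Sgk1 were the LIM domain protein gene Csrp2 (difference 0.087; 11.4 CPM in shERK5, 21.4 in shMEK5 and 15.5 in shCTRL) and Gde1 (0.10; 47.6, 92.2 and 69.2 CPM). Nearest to Klf4 were Vav3 (0.060; 85.1 CPM in shERK5, 107 in shMEK5 and 133 in shCTRL) and Arglu1 (0.060; 31.4, 40.3 and 51.6 CPM). For Mapk7 they were Prune2 (0.15; 11.0 CPM in shERK5, 36.3 in shMEK5 and 47.1 in shCTRL) and Rgl1 (0.17; 1.67, 6.46 and 11.2 CPM). Nearest to Map2k5 were Cap1, an actin-binding protein gene (0.075; 303 CPM in shERK5, 135 in shMEK5 and 301 in shCTRL), and Zfand2a (0.16; 143, 64.0 and 121 CPM).

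Genes that surround the cascade were read as 5 lists. Of 17 upstream regulators and scaffolds 16 were tested. In shERK5 3 rose and 7 fell (median -0.19), against 63.3% of all genes tested called, and in shMEK5 1 rose and 7 fell (median -0.12), against 48.7%. Both counts are near the share over all genes. Prkci, the atypical protein kinase C iota, whose PB1 domain is of the kind that MEK5 also carries, rose in both, with 203 ± 5.87 CPM in shERK5, 152 ± 2.10 CPM in shMEK5 and 110 ± 4.69 CPM in shCTRL (SD over 3, 2 and 3 libraries). Its log2 fold changes were 0.88 (SE 0.05) and 0.47 (SE 0.05). Sqstm1, the PB1 scaffold p62, fell in both (-0.28, SE 0.04 in shERK5 and -0.59, SE 0.04 in shMEK5), as did Stub1, a ubiquitin ligase reported as an ERK5 partner (-0.35, SE 0.04 and -0.25, SE 0.05). Heg1, a membrane protein tied to MEKK3 through the CCM complex, fell in shERK5 to 6.60 ± 0.262 CPM, against 12.4 ± 0.202 CPM in shCTRL (SD, n = 3 each; -0.81, SE 0.08). In shMEK5 Heg1 was at 12.6 ± 1.72 CPM (SD, n = 2; 0.019, SE 0.09, adjusted p = 0.876).

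Of 10 MEF2 partners and repressors 9 were tested. In shERK5 2 rose and 6 fell (median -0.25; 63.3% of all genes called), and in shMEK5 1 rose and 2 fell (median -0.045; 48.7% of all genes called). Hdac5, a class IIa histone deacetylase that represses MEF2, fell to 40.5 ± 1.36 CPM in shERK5 (SD, n = 3) and 50.2 ± 0.487 CPM in shMEK5 (SD, n = 2), against 63.8 ± 2.21 CPM in shCTRL (SD, n = 3). The log2 fold changes were -0.64 (SE 0.05) and -0.34 (SE 0.06). Hdac7, of the same class, fell in shERK5 (-0.29, SE 0.07) and was at 0.051 (SE 0.07, adjusted p = 0.586) in shMEK5. Mapk14, the p38 kinase that also phosphorylates MEF2 proteins, rose in shERK5 (0.45, SE 0.09), and the acetyltransferase gene Crebbp fell there (-0.43, SE 0.10). In shMEK5 these were at 0.045 (SE 0.10, adjusted p = 0.723) and -0.24 (SE 0.11, adjusted p = 0.0930).

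All 14 other reported ERK5 substrates and targets were tested. The list mixes proteins that ERK5 is reported to phosphorylate with genes it is reported to induce. Its counts therefore do not tell how ERK5 target genes responded. In shERK5 2 rose and 2 fell (median -0.014), fewer than the 63.3% called over all genes, and in shMEK5 3 rose and 3 fell (median 0.17), near the 48.7% over all genes. Ccnd1, cyclin D1, had 1328 ± 32.1 CPM in shERK5, 2028 ± 110 CPM in shMEK5 and 1759 ± 64.2 CPM in shCTRL (SD over 3, 2 and 3 libraries), lower in shERK5 and higher in shMEK5, as Sgk1 was. Between the knockdowns it differed by -0.61 (SE 0.05, limma adjusted p = 1.28e-05). Ptgs2, cyclooxygenase-2, rose in shERK5 (0.56, SE 0.08) and was at 0.20 (SE 0.09, adjusted p = 0.0729) in shMEK5. Jun, an AP-1 subunit, rose in shMEK5 (0.48, SE 0.11) and was at 0.25 (SE 0.10, adjusted p = 0.0618) in shERK5, and Rps6ka1, the kinase RSK1, fell in shMEK5 (-0.38, SE 0.05) and was at -0.024 (SE 0.05, adjusted p = 0.679) in shERK5.

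Of 12 genes around SGK1 11 were tested. In shERK5 3 rose and 7 fell (median -0.16; 63.3% of all genes called), and in shMEK5 0 rose and 3 fell (median -0.095; 48.7% of all genes called). Ndrg1, whose product SGK1 phosphorylates, fell to 324 ± 12.8 CPM in shERK5 (SD, n = 3) and 304 ± 1.18 CPM in shMEK5 (SD, n = 2), against 554 ± 25.8 CPM in shCTRL (SD, n = 3), unlike Sgk1 in having no difference called between the knockdowns (0.09, SE 0.05, adjusted p = 0.213). Nedd4, a ubiquitin ligase, fell in both (-0.95, SE 0.05 in shERK5 and -0.28, SE 0.06 in shMEK5). Its relative Nedd4l, an SGK1 substrate, rose in shERK5 (0.37, SE 0.06) and was at -0.070 (SE 0.07, adjusted p = 0.405) in shMEK5. Nr3c1, the glucocorticoid receptor, fell in both (-0.53, SE 0.07 and -0.26, SE 0.07).

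Of 12 genes reported downstream of KLF2 and KLF4 10 were tested, Thbd and Kdr having no read in any library. In shERK5 5 rose and 3 fell (63.3% of all genes called), and in shMEK5 4 rose and 1 fell (48.7% of all genes called). Edn1 and Nos3 (named after its values were seen; 0.967 CPM in shERK5, 0.884 CPM in shMEK5 and 0.577 CPM in shCTRL) are among the rises in shERK5, and Edn1 among those in shMEK5. Both passed the filter only through knockdown libraries, where they are high, so the counts of this list support nothing and no median is given. The 4 members with the smallest adjusted p, picked from these same data, rose in both, which is no support by itself. Cdkn1b fell in both (-0.31, SE 0.06 and -0.19, SE 0.06). Trp53 (-0.47, SE 0.18, limma adjusted p = 0.0475) and Txnip (-0.21, SE 0.07, limma adjusted p = 0.0159) fell in shERK5. In shMEK5 Trp53 was at -0.034 (SE 0.20, adjusted p = 0.904) and Txnip at -0.0017 (SE 0.07, adjusted p = 0.987). Cdh1, E-cadherin, was at 1.56 (SE 0.06) and 0.56 (SE 0.07), Krt19 at 1.02 (SE 0.05) and 0.39 (SE 0.06), and the laminin gene Lama3 at 1.14 (SE 0.08) and 1.18 (SE 0.08) in shERK5 and shMEK5. Edn1, endothelin-1, had 1.08 ± 0.126 CPM in shERK5, 5.34 ± 0.203 CPM in shMEK5 and 0.631 ± 0.0839 CPM in shCTRL (SD over 3, 2 and 3 libraries). Between the knockdowns, shERK5 against shMEK5, 39.4% of all genes were called (22.0% up, 17.4% down). There 3 genes of this list were higher and 2, with Edn1 among them, lower in shERK5, a count under the same limit. The same counts were 3 and 1 for the upstream regulators, 1 and 2 for the MEF2 partners, 2 and 2 for the other ERK5 substrates and targets, and 3 and 6 for the genes around SGK1.

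**Figure D4:**
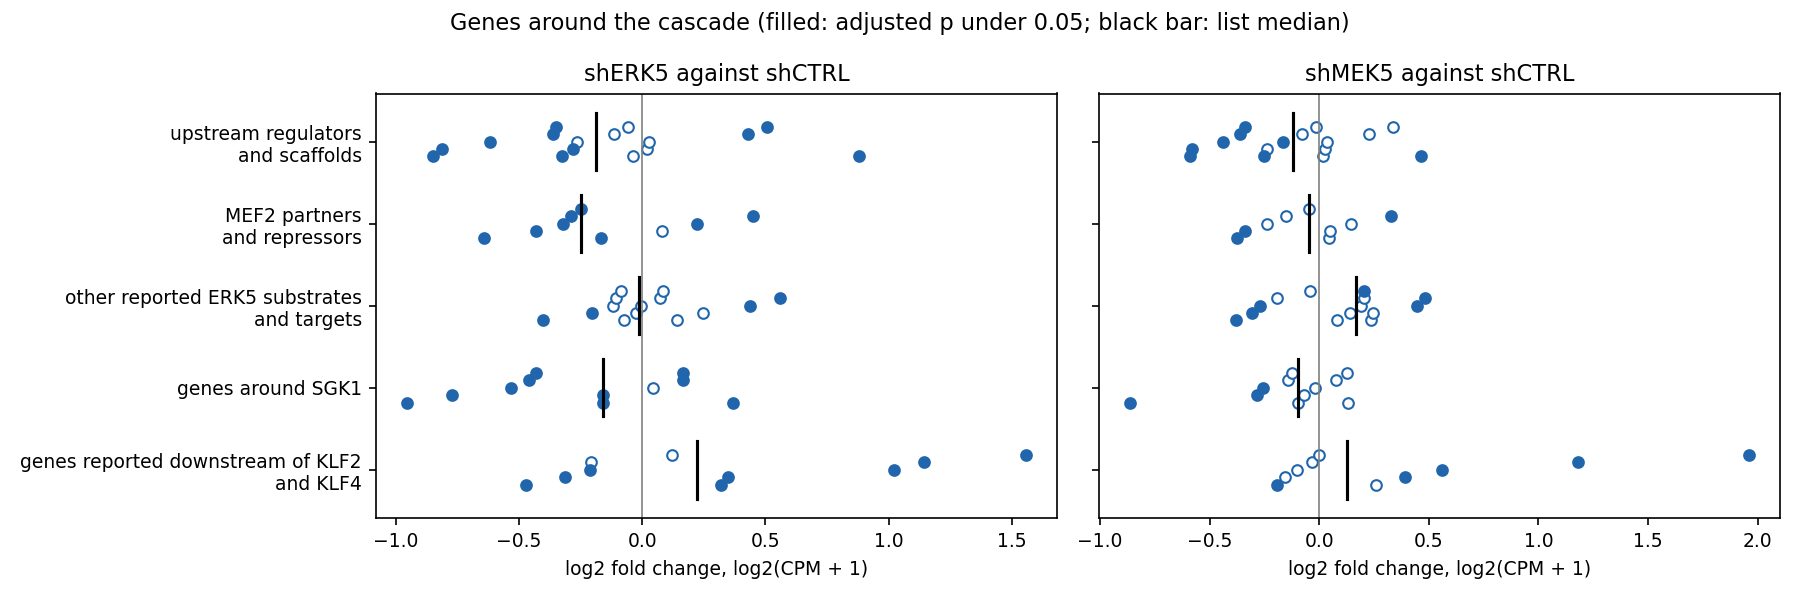
Log2 fold changes on the log2(CPM + 1) scale of the tested genes of the 5 lists (points; filled where adjusted p was under 0.05) in shERK5 and in shMEK5 against shCTRL, with list medians (black bars). The MEF2 partner list has the lowest median in shERK5, -0.25. The KLF2 and KLF4 list holds Edn1 and Nos3, which passed the filter only through knockdown libraries, so its median bar supports nothing.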

How the data were processed

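The authors deposited 1 table of CPM (reads per 1000000 gene-assigned reads) per library; per the labels' protocols, libraries came from stranded total RNA after ribosomal depletion, and the submitters' processing notes name STAR and build mm10. Not given in the sources used here are the version of STAR, the annotation, the counting program and its strand setting. Each library summed to 1000000, and dividing by the value of 1 read gave whole numbers (tolerance 0.01) for 100% of non-zero values, so reads were recovered. Of 24454 Entrez numbers, 24374 matched a symbol in a RefSeq table of GRCm38.p6; exon lengths came from GENCODE M21, on GRCm38.

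Tests used limma 3.58.1 (R 4.3.3) with trend and robust moderation on log2(CPM + 1), over all 8 libraries with a mean per group. Genes with at least 1 CPM in at least 2 libraries were tested (11623; 12831 left out), Benjamini-Hochberg adjusted over all of them and called at 0.05. Fold changes on this scale understate changes of low genes. All adjusted p-values in the text are from limma unless edgeR 4.0.16 or DESeq2 1.42.0, run on the recovered reads, is named. Replicate pairs differed by more than sampling noise (chi-square per degree of freedom 8.22 to 42.5), so none was counted as a duplicate.

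All 10 genes are named. From each list, the 4 members with the smallest adjusted p in either knockdown are named. Nos3 and the members that fell are also named from the KLF2 and KLF4 list, and Mef2b from the MEF2 partner list. Similar genes are the 2 nearest to each gene called with a log2 fold change of at least 0.5 in size. Members, lists and tests were chosen with earlier results of these data known. Alternatives were other pseudocounts (0.5 and 2), filters (none, or 5 CPM), TMM and RLE scaling, edgeR, DESeq2, non-robust moderation, the compared groups only, a replicate block and each library left out.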

Additional observations from a re-analysis of the deposited data

Results flagged for a closer look

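The effects of the hairpins on 5 of the 8 tested genes differed when shERK5 was tested directly against shMEK5, a comparison in which 39.4% of all genes tested were called. For Map2k5 (1.31, log2, higher in shERK5) and Mapk7 (-1.45, lower in shERK5) the difference is between a hairpin's own target and a library in which it was not targeted. Sgk1 (-1.06) was below shCTRL in all 3 shERK5 libraries and above it in both shMEK5 libraries. Map3k3 (0.32) was below every shCTRL library in both shMEK5 libraries and above every shCTRL library in all 3 shERK5 libraries. For shERK5 replicate 1 this was only just so (102.7 CPM, against 102.4 CPM in shCTRL replicate 3). The Map3k3 value in shERK5 against shCTRL did not pass the test, and the part of the overlapping Limd2 in its values was not tested. Klf4 (-0.35) was below shCTRL in all 5 knockdown libraries, lowest in shERK5, and its difference between the knockdowns was not stable to leaving out libraries. No explanation was tested for any of these.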

How the results depend on the processing

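Over 19 alternatives and 24 fold changes (456 values), 427 kept their direction and their side of the threshold, 8 lost a call, 7 gained one and 14 changed sign, none of them called. The calls of Mapk7, Map2k5 and Sgk1 against shCTRL and between the knockdowns, and of Klf4 in shERK5 against shCTRL, held under every alternative. So did that of Map3k3 between the knockdowns (log2 fold change 0.28 to 0.37). Leaving out each library in turn gave 2912 (without shMEK5 replicate 1) to 4827 genes called between the knockdowns, against 4581 with all libraries; with 1 library left in shMEK5 it is assumed to vary like the other groups. It gave log2 fold changes of -0.010 to 0.026 for Map2k5, -0.059 to 0.075 for Mef2d in shERK5 against shCTRL, -0.092 to 0.15 for Mef2a and -0.088 to 0.040 for Mef2d in shMEK5 against shCTRL, and -0.18 to 0.037 for Map3k2 and -0.035 to 0.10 for Mef2d between the knockdowns. Deviations from the group mean correlated at -0.065, -0.19 and 0.17 for the same-numbered shERK5 and shCTRL libraries, and at -0.42 to 0.40 for differently numbered ones. Same-numbered shMEK5 and shCTRL libraries gave -0.13 and 0.031, and same-numbered shERK5 and shMEK5 libraries 0.46 and 0.52. With 2 libraries the shMEK5 deviations are mirror images, so their values are not separate checks. Whether the numbers pair shERK5 with shMEK5 libraries was not settled, and the main fit used no pairing. The replicate block gave 7462, 5763 and 4435 genes called in shERK5 and shMEK5 against shCTRL and between the knockdowns (7360, 5663 and 4581 without it). With it, Map3k2 (-0.21, adjusted p = 0.0353) and Map3k3 (0.11, adjusted p = 0.0478) were called in shERK5, and the sign changed for Mef2a (-0.022) and Mef2d (0.031) in shMEK5 against shCTRL and for Mef2d between the knockdowns (-0.017). Mef2a was called between the knockdowns (-0.24) when only those groups were fitted (adjusted p = 0.0352), and likewise with shCTRL replicate 1 left out (adjusted p = 0.0320). With TMM scaling the calls split into 2923 up and 2763 down in shMEK5 against shCTRL (2684 and 2979 without it) and 2294 up and 2214 down between the knockdowns (2561 and 2020 without it). The cause of these changes was not tested. Depth limits Klf2 and Mef2c, at 27 reads or fewer per library.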

Other observations

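Spread within a group differed between genes. In shERK5, Map3k2 had a coefficient of variation of 15.5% and Sgk1, with fewer reads, of 2.27% (n = 3 libraries each). In shCTRL, Mef2a had 17.2% and Klf4 1.42%, with Klf4 again the gene with fewer reads.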
